A study of Schizosaccharomyces pombe with 6 samples.

Results

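The rad52 locus of fission yeast (Schizosaccharomyces pombe) was taken as a window of 21.0 kb on chromosome I, chrI:1090001-1111000, with the rad52 gene at chrI:1099489-1101563 near its middle. The window held 72 of the 42707 probes on the array, of which 9 had their midpoint in rad52 and 63 lay outside it. Values are log2 IP/input, the immunoprecipitated (IP) signal over the input signal of a probe, with the median of each array at 0. The 6 arrays were 3 labelled WT and 3 labelled Δrad3, a deletion in the gene of the checkpoint kinase Rad3. Cells of both strains carried the conditional cell cycle mutation cdc25-22, which blocks entry into mitosis at high temperature. A block of 4 h at 36.5 °C was followed by release at 25 °C and collection after 60 min, with hydroxyurea at 6 mM, an inhibitor of ribonucleotide reductase that slows replication forks. Per the labels, every array carried input DNA in the red channel and Rad52 IP DNA in the green channel, so a dye effect at a probe was not balanced within a strain. The series text speaks of reciprocal labelling, which the sample labels do not show, and the direction of every ratio here rests on the sample labels. No control IP was given, so a level in a strain includes any unspecific IP signal.

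Rad52 is the mediator of homologous recombination. It binds single-stranded DNA coated by replication protein A and anneals complementary single strands. It gathers at replication forks that have stalled or broken. Rad3, the ATR-family kinase, is recruited to the same coated DNA and starts the replication checkpoint. The rad52 gene itself, formerly rad22, encodes the protein that was immunoprecipitated.

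The array labelled WT replicate 2 went against its label. In its input DNA 24 of 26 probes in the rad3 coding sequence were not well above background, against 9 of 26 on each Δrad3 array and 0 on the other WT arrays. The main means and counts of calls are therefore also given without it. The protocol texts also split the arrays. A chromatin protocol with an antibody to Rad52 and fragments between 400 and 500 bp was given for WT replicates 1 and 2. An RNA protocol, and addition of the hydroxyurea 10 min into the release, was given for WT replicate 3 and every Δrad3 array. Arrays of the same replicate number shared a slide, and the log2 IP/input deviations from the strain means correlated between them (r from 0.11 to 0.39 over probes). The file headers name the extraction protocol ChIP_107_Sep09 for slide 2 and CGH_107_Sep09 for slides 1 and 3. Whether replicates came from separate cultures is not stated, and the p-values cover no more than the scatter of these 6 arrays, which may be technical. The median signal over local background was at least 5.04 in the input and 5.10 in the IP.

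The rad52 gene lies on the reverse strand, with its coding sequence at chrI:1100128-1101537, a 3′ untranslated region of 639 bases and a coding length of 1410 bases for 469 amino acids. The highest ratio of the locus was measured where the coding sequence ends. The last 60 coding bases (RefSeq, ASM294v3, chrI:1100128-1100187, reverse strand) are shown with the stop codon in capitals, because the probe with the highest ratio covers the final 19 of them.

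end of the rad52 coding sequence: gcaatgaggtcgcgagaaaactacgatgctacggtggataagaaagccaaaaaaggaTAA

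This probe, at chrI:1100087-1100146, spans the stop codon and continues for 41 bases into the 3′ untranslated region. Its A+T content in the reference was 68.3%. The neighbouring probes are 270 bp away on the 3′ side and 139 bp away on the coding side. A BLAST search with 300 bp around the stop codon found 1 match in the reference genome, the locus itself, and 0 other matches at an expected value of up to 0.001.

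The probe at the stop codon had the highest mean log2 IP/input over the 6 arrays of all probes on the array, at 2.49 against 2.10 for the next, and it was singled out after its values were seen. Its log2 IP/input was 4.05, 1.93 and 2.44 on WT replicates 1, 2 and 3. On Δrad3 replicates 1, 2 and 3 it was 4.15, 0.90 and 1.48. The probe was above 0 on every array, both arrays of slide 1 stood far above the other 4, and the strains overlapped. In each strain it was lowest on slide 2, which had the other extraction protocol, and an effect of the protocol was not tested. As ratios these values were 16.5-fold, 3.80-fold and 5.44-fold over input in WT, and 17.8-fold, 1.87-fold and 2.79-fold in Δrad3. Among all probes of its array it ranked 1 on WT replicate 1 and 1 on Δrad3 replicate 1, where the highest other probe stood at 2.71 and 2.61. It ranked 330 on WT replicate 2 and 18 on WT replicate 3, and 958 and 652 on Δrad3 replicates 2 and 3. The excess on slide 1 thus had no equal on those 2 arrays, whereas on the other 4 arrays higher probes existed.

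**Figure D1:**
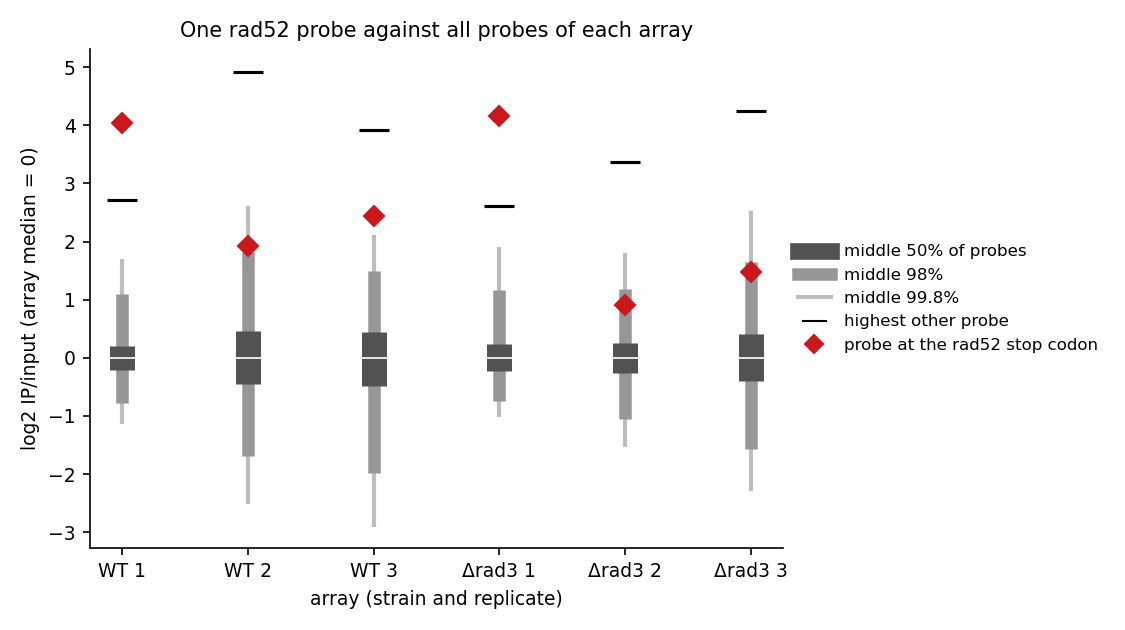
Log2 IP/input (y axis, array median at 0) of all probes on each of the 6 arrays (x axis), with nested grey bars for the central shares of probes given in the key, a black dash for the highest other probe and a red diamond for the probe at the rad52 stop codon. The diamond lies above every other probe on WT replicate 1 (4.05) and Δrad3 replicate 1 (4.15), and below the highest other probe on the remaining 4 arrays.

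In limma's fit across all probes the stop-codon probe was higher than the array median in WT, at 2.81 (SE 0.50, adjusted p = 0.0224). In Δrad3 its mean of 2.18 (SE 0.50) did not pass, with limma's adjusted p = 0.0760. It passed in a limma fit that blocked on replicate number, which is also the slide (SE 0.22, adjusted p = 0.00110). That fit takes the spread between slides out of the error, so its p-value for a level does not cover that spread. Without the array labelled WT replicate 2 the mean of the remaining WT arrays was 3.24, with limma's adjusted p = 0.0913, and the Δrad3 mean of 2.18 had an adjusted p = 0.0504. The WT call was also lost without WT replicate 1 or 3 (limma's adjusted p = 0.0578 and 0.0573), with normexp background correction (0.147), with arrays scaled to one spread (0.0662) and with a trended robust variance (0.155), each with a mean of 2.18 or more. With normexp correction the difference between strains turned to 0.20. The strains differed by -0.63 (Δrad3 minus WT, SE 0.71, limma's adjusted p = 0.959, exact two-sided permutation p = 0.6, where 0.1 is the smallest possible). Within slides 1, 2 and 3 the difference was 0.10, -1.02 and -0.96, so it was near 0 where the probe was highest. It was -1.07 without the array labelled WT replicate 2 (limma's adjusted p = 0.939), -0.0074 without WT replicate 1 and 0.010 without Δrad3 replicate 2. Without Δrad3 replicate 1 it was -1.61 (limma's unadjusted p = 0.00922, adjusted p = 0.999), and the Δrad3 mean fell to 1.19.

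The excess was in the IP channel. With each channel centred on its own array median, the IP signal of the stop-codon probe was 4.84, 1.86 and 3.72 in WT and 4.47, 1.02 and 2.40 in Δrad3 on the log2 scale. The input signal was 0.81, -0.06 and 1.29 in WT and 0.34, 0.15 and 0.96 in Δrad3. The IP signal exceeded the input signal on all 6 arrays, and the input signal lay near or above the array median. The spot was well above background in both channels, unsaturated and not marked as an outlier on any array. The 14 spots around it on the slide had median log2 IP/input of -0.40 to 0.02, so its surroundings on the glass were not raised.

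**Figure D2:**
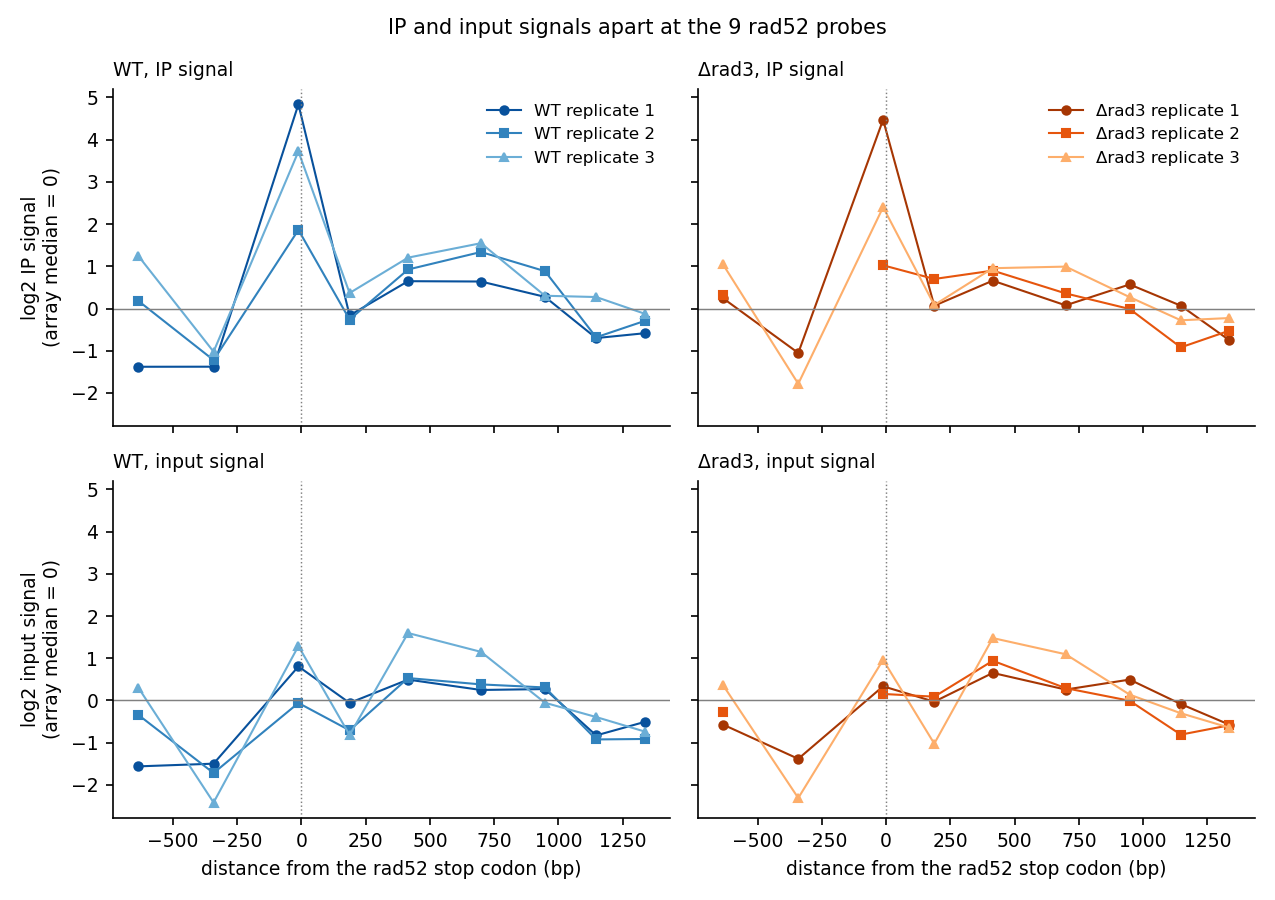
Log2 IP signal (top) and log2 input signal (bottom), each with its array median at 0, at the rad52 probes against distance from the stop codon in bp (dotted line, positive into the coding sequence), with 1 line per array for WT (left) and Δrad3 (right). The IP signal has its peak at the stop codon, at 4.84 on WT replicate 1 and 4.47 on Δrad3 replicate 1, while the input signal there stays between -0.06 and 1.29; a gap in the line of Δrad3 replicate 2 is a spot left out as an outlier.

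The probes next to it did not follow on slide 1. The neighbour on the 3′ side stood at 0.13, 0.50 and 1.41 on the WT arrays. On Δrad3 replicates 1 and 3 it stood at 0.34 and 0.57, and on Δrad3 replicate 2 its spot was left out as an outlier (0.48 if kept). The neighbour on the coding side stood at -0.09, 0.45 and 1.20 in WT and at 0.11, 0.64 and 1.15 in Δrad3. Both neighbours were thus highest on WT replicate 3 and lowest on WT replicate 1, the reverse of the order of these arrays at the stop codon. The excess over the mean of both neighbours was 4.02 on WT replicate 1 and 3.92 on Δrad3 replicate 1, which ranked 1 among all probes with 2 such neighbours on each of these arrays. It was 1.45, 1.14 and 0.62 on WT replicates 2 and 3 and Δrad3 replicate 3. On slide 1 the signal was thus seen at a single probe, with both neighbours at 0.34 or less. On slide 3 both neighbours were raised with the stop-codon probe, on WT replicate 3 and, at 0.57 and 1.15, on Δrad3 replicate 3. Whether the IP signal of this probe depended on Rad52 was not tested, as there was no control IP.

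**Figure D3:**
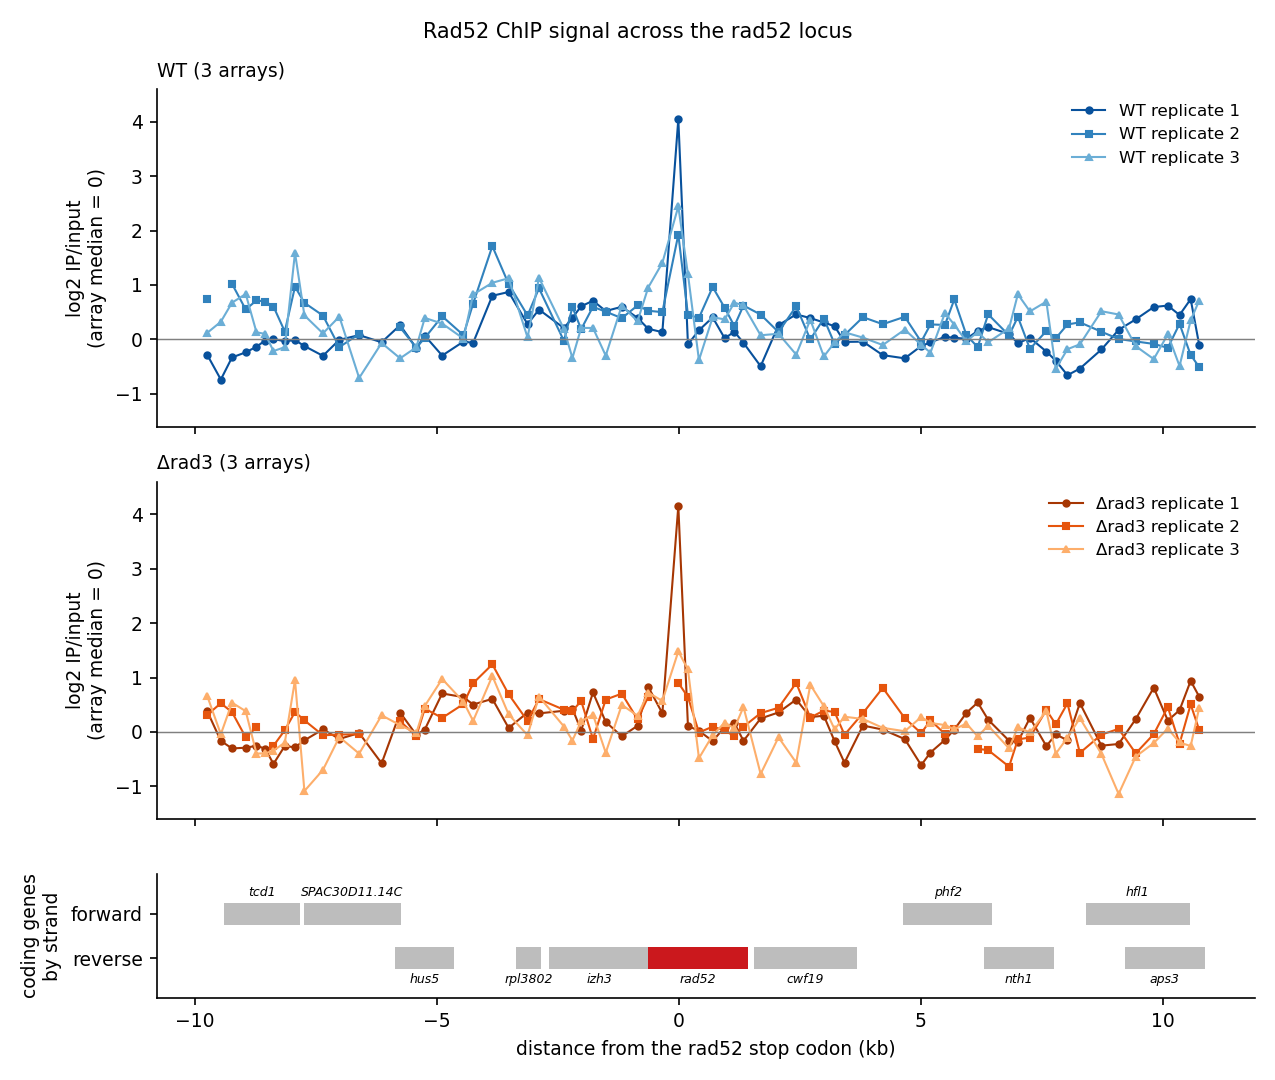
Log2 IP/input (y axis, array median at 0) of the window's probes against distance from the rad52 stop codon in kb, with 1 line per array for WT (top) and Δrad3 (middle) and the coding genes by strand (bottom, rad52 in red). A single probe at the stop codon stands out in both strains, up to 4.05 in WT and 4.15 in Δrad3; the next highest mean in the window is 1.19 in WT and 0.96 in Δrad3, near -4 kb.

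Across the window limma called 2 of 72 probes (2.78%) higher than the array median in WT, which needed a mean log2 of 0.5 or more beside an adjusted p under 0.05, against 0.62% of all probes tested. They were the stop-codon probe and the probe at chrI:1096243-1096302, which lies beside a tandem pair of tRNA genes for serine and methionine. In WT 10 of 72 had an unadjusted p under 0.05 in limma's fit, in either direction, against 18.5% of all probes. In Δrad3 limma called 0 of 72, against 0.533% of all probes. There 8 of 72 had an unadjusted p under 0.05, against 12.1% of all probes. With the replicate block, which leaves out the spread between slides, the counts of calls were 5 in WT and 2 in Δrad3. Of all probes it called 2.55% and 2.07%. The 2 in Δrad3 were the same probes as the 2 called in WT without the block. Without the array labelled WT replicate 2 the WT count was 0, against 0.00237% of all probes. Between strains limma called 0 of the 72 different, against 0% of all probes, and 0 had an unadjusted p under 0.05, against 4.7% of all probes. Groups of 3 arrays did not overlap for 7 of the 67 window probes measured on all arrays (10.4%), close to the 10.6% of all probes. With the array labelled WT replicate 2 left out this held for 13 of 68, against 20.6% of all probes.

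The other raised stretch lay on both sides of the tRNA pair, and whether these genes had a part in it was not tested. The probe at chrI:1096243-1096302 stood at 0.80, 1.71 and 1.04 in WT (limma's adjusted p = 0.0449). In Δrad3 it stood at 0.61, 1.24 and 1.03 (limma's adjusted p = 0.109, and 0.0296 with the block, which leaves out the spread between slides). The probe on the other side of the pair, at chrI:1096580-1096639, stood at 0.87, 1.02 and 1.12 in WT and at 0.07, 0.69 and 0.32 in Δrad3. At the first probe the strains overlapped, and at the second the WT arrays lay above all Δrad3 arrays, with limma's adjusted p = 0.958 for the difference of -0.64. The most A+T-rich 1000 bp of the window, at 71.9%, lay at chrI:1095351-1096350 and so included the first of these probes.

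The remaining 8 probes of rad52 were modest. The probe at the far 3′ end, chrI:1099464-1099523, was above 0 on every array, at 0.20, 0.53 and 0.95 in WT and 0.83, 0.64 and 0.72 in Δrad3. In Δrad3 it did not pass in the main fit (limma's adjusted p = 0.192). With arrays scaled to one spread it did (0.84, limma's adjusted p = 0.0337), where 3% of all probes were called. The 6 probes with midpoints in the coding sequence averaged 0.10, 0.54 and 0.48 in WT and 0.01, 0.13 and 0.22 in Δrad3. In the coding sequence WT replicate 1 was as low as the Δrad3 arrays, and the strain means of 0.37 and 0.12 did not pass limma's test (adjusted p = 0.107 and 0.699). The probe nearest the start codon stood at -0.06, 0.62 and 0.62 in WT and at -0.16, 0.10 and 0.46 in Δrad3, with no peak of the kind seen at the other end.

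Averaged over its 9 probes, rad52 stood at 0.55, 0.69 and 0.85 on the WT arrays and at 0.60, 0.29 and 0.45 on the Δrad3 arrays. The strains overlapped because Δrad3 replicate 1 lay above WT replicate 1. For the WT arrays the mean was 0.70 ± 0.15 (SD, n = 3), and for the Δrad3 arrays it was 0.45 ± 0.15 (SD, n = 3). Across 8200 genes with at least 2 probes, limma put the WT mean above the array median (adjusted p = 0.0222), as it did for 1.79% of genes. The Δrad3 mean did not pass (adjusted p = 0.137), and 0.695% of genes did. The strain difference of -0.25 (SE 0.18) had limma's adjusted p = 0.782, an exact permutation p = 0.2, and was 0.05, -0.40 and -0.40 within slides 1, 2 and 3. Without the array labelled WT replicate 2 the WT mean was 0.70 and no longer passed (limma's adjusted p = 0.0985), and the difference was -0.26. The difference was -0.0060 with normexp background correction and -0.12 with arrays scaled to one spread.

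The WT call on the gene mean was lost without the stop-codon probe. With that probe left out, an alternative chosen after seeing the data, rad52 stood at 0.11, 0.54 and 0.66 in WT and at 0.15, 0.20 and 0.32 in Δrad3. Δrad3 replicate 1 then moved from the highest to the lowest place of its strain, and WT replicate 1 stayed the lowest of WT. The WT mean became 0.43 (limma's adjusted p = 0.0894) and the Δrad3 mean 0.23 (adjusted p = 0.431). This WT mean was 0.38 when the array labelled WT replicate 2 was left out. With all probes rad52 ranked 156 of 8200 genes in WT and 496 in Δrad3, and with every gene stripped of its own highest probe it ranked 302 and 659 of 6575.

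Set against its flanks, the 67 other probes within 10000 bp of either gene end, rad52 was higher by 0.50, 0.37 and 0.67 on the WT arrays. The excess was 0.48, 0.06 and 0.38 on the Δrad3 arrays. It was positive on all 6 arrays, close to 0 on Δrad3 replicate 2, and the strains overlapped. In limma's fit of the same quantity for every gene, the WT excess of 0.51 (SE 0.12) passed at adjusted p = 0.0440, as did that of 1.83% of genes. The Δrad3 excess of 0.31 (SE 0.12) did not (adjusted p = 0.220), and 1.1% of genes did. The difference of -0.21 (SE 0.17) had limma's adjusted p = 0.809 and an exact permutation p = 0.3. The WT excess did not pass without the array labelled WT replicate 2 (0.58, adjusted p = 0.126), nor without the stop-codon probe (0.25, adjusted p = 0.225), and in Δrad3 the value without that probe was 0.09 (adjusted p = 0.757).

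**Figure D4:**
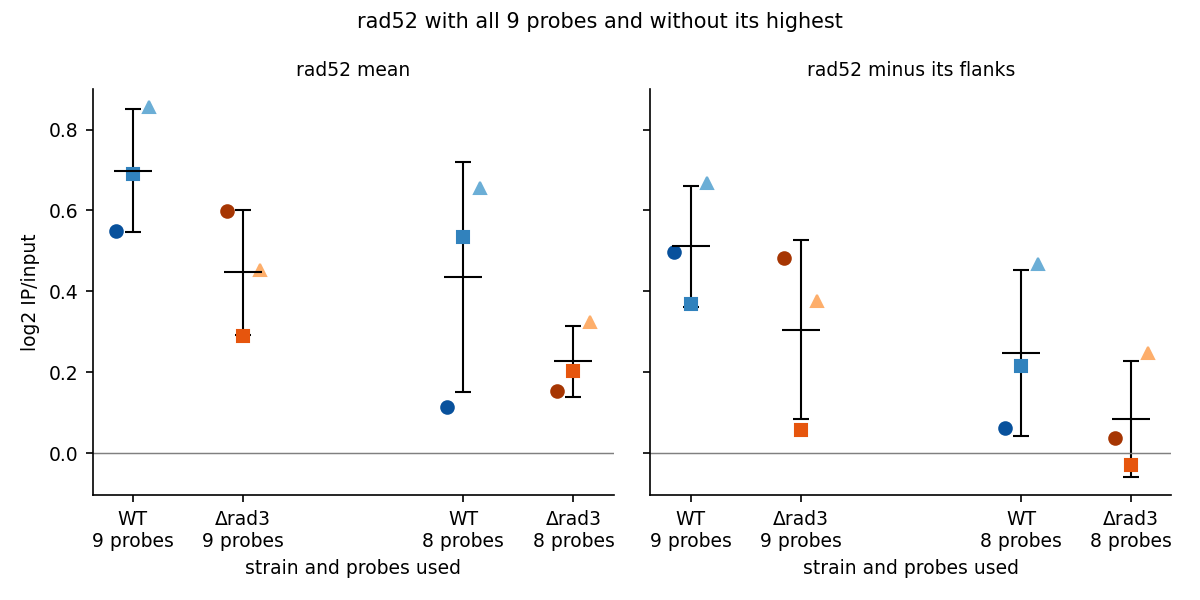
Log2 IP/input of rad52 (left) and of rad52 minus its flanks (right) on each array, with all 9 probes and without the stop-codon probe (8 probes); circles, squares and triangles are replicates 1, 2 and 3, and black marks give the mean ± SD of 3 arrays. Dropping 1 probe lowers the WT mean from 0.70 to 0.43 and the WT excess over the flanks from 0.51 to 0.25, and takes the slide 1 arrays (circles) down most.

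In the IP channel alone rad52 exceeded its flanks by 0.22, 0.11 and 0.68 in WT and by 0.49, 0.06 and 0.39 in Δrad3. All 6 values were positive, and neither strain mean passed limma's test (0.34, adjusted p = 0.136 and 0.31, adjusted p = 0.176). With the replicate block, which leaves out the spread between slides, the WT value passed (limma's adjusted p = 0.0474). It was 0.45 without the array labelled WT replicate 2 and 0.17 without WT replicate 3, and 0.05 with normexp background correction. Without the stop-codon probe the IP means were -0.04 in WT and 0.02 in Δrad3. The input channel, which follows copy number and probe behaviour, was -0.28, -0.26 and 0.02 in WT and 0.00, 0.01 and 0.01 in Δrad3. WT replicates 1 and 2 were lower than the other 4 arrays, and the difference of 0.18 between strains had limma's adjusted p = 1.00. The WT mean was -0.17, and -0.13 without the array labelled WT replicate 2. Without the stop-codon probe the input was -0.42, -0.30 and -0.15 in WT and -0.05, -0.02 and -0.11 in Δrad3. These strains did not overlap (exact permutation p = 0.1, the smallest possible). Within slides 1, 2 and 3 the difference was 0.37, 0.28 and 0.03. The probe was left out after the data were seen, and the share of all genes without overlap in this quantity was not counted. The WT input mean without the probe was -0.29, or -0.28 when the array labelled WT replicate 2 was also left out. In the WT means, the excess of 0.25 left in the ratio thus lay in low input, beside the IP mean of -0.04. The WT arrays differed in this. Their ratio excess was 0.06, 0.21 and 0.47, with IP values of -0.35, -0.08 and 0.32. On WT replicate 3, which had the largest excess, the IP was raised, beside an input of -0.15.

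Of the 19 annotated genes in the window with at least 2 probes, 11 code for proteins. In WT limma called 3 of 19 higher than the array median, against the 1.79% of all genes, and 0 lower, against 1.44%. They were rad52, SPNCRNA.711, an antisense RNA that shares 7 probes with rad52, and rpl3802, which has 2 probes and encodes a protein of the large ribosomal subunit. In WT 5 of 19 had an unadjusted p under 0.05 in limma's fit, in either direction, against 27.9% of genes. In Δrad3 limma called 0 of 19 higher, against 0.695% of genes, and 5 had an unadjusted p under 0.05, as had 16.5% of genes. Without the array labelled WT replicate 2 the WT count was 0, against 0.195% of genes. Arrays of the strains did not overlap for 3 of the 19 genes, hus5, rpl3802 and SPNCRNA.711, where 13.6% of all genes did not, and limma called 0 of the 19 different, against 0% of genes. At an unadjusted p under 0.05 there were 0, against 7.1% of genes. The strains did not overlap for 3 of 19 genes with the array labelled WT replicate 2 left out, against 23.9% of all genes.

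On the 3′ side of rad52 lie izh3, which encodes a membrane protein of the Izh family, and beyond it rpl3802. izh3 stood at 0.45, 0.43 and 0.24 in WT and at 0.33, 0.43 and 0.20 in Δrad3. rpl3802 stood at 0.41, 0.69 and 0.58 in WT (limma's adjusted p = 0.0354) and at 0.35, 0.40 and 0.30 in Δrad3 (adjusted p = 0.195). Both were above 0 on every array, with overlap between strains for izh3 only. Further out, hus5, the gene of the SUMO-conjugating enzyme, stood at -0.03, 0.13 and 0.05 in WT and at 0.26, 0.20 and 0.39 in Δrad3, so that all Δrad3 arrays lay above all WT arrays. Its difference of 0.24 had limma's adjusted p = 0.782.

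On the 5′ side cwf19, a splicing factor gene, stood at 0.16, 0.23 and 0.00 in WT and at 0.15, 0.38 and 0.03 in Δrad3. nth1, which encodes the DNA repair enzyme endonuclease III, stood at 0.01, 0.19 and 0.44 in WT and at -0.02, -0.16 and 0.06 in Δrad3. Values on this side lay around the array median in both strains. The 32 probes right of rad52 averaged 0.10 in WT and 0.07 in Δrad3, and the 31 probes left of it 0.30 and 0.18. The side of izh3 and the tRNA pair was the higher in both strain means, but not on Δrad3 replicate 1, at 0.08 on the left and 0.12 on the right.

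**Figure D5:**
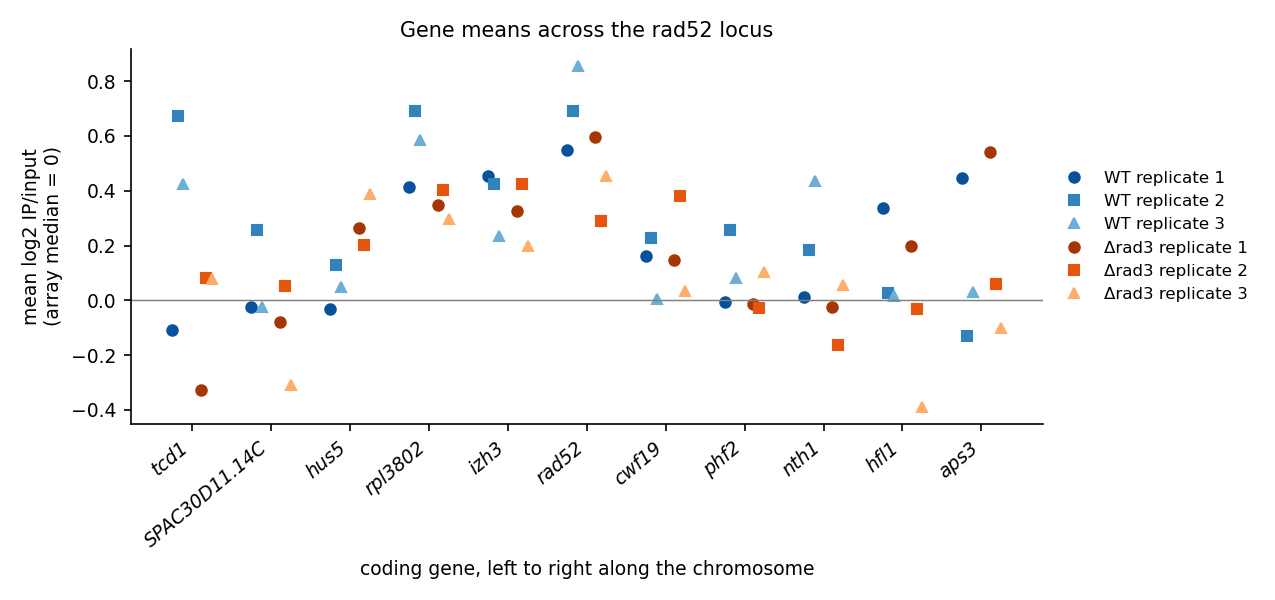
Mean log2 IP/input (y axis, array median at 0) of the 11 coding genes of the window, left to right along the chromosome, with 1 point per array, blue for WT and orange for Δrad3 and shapes for replicates. rad52 and rpl3802 lie above 0 on all 6 arrays, as do izh3 between them and, at lower values, cwf19 to the right (0.00 to 0.38).

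The 5 genes nearest to rad52 in their 6 array values, by Euclidean distance over 4340 genes with at least 5 probes, were SPNCRNA.711, which shares its probes, sec9, sum3, SPNCRNA.6199 and SPNCRNA.862. sec9 encodes a SNARE protein of secretion and sum3 a DEAD-box RNA helicase. sum3 stood at 0.82, 0.70 and 0.78 in WT and at 0.42, 0.34 and 0.43 in Δrad3. Unlike rad52, its WT arrays all lay above its Δrad3 arrays (limma's adjusted p = 0.686 for the difference).

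No other homologous recombination gene was called higher. Of 25 such genes listed, 22 were measured, and limma called 0 higher and 2 lower in WT, against 1.79% and 1.44% of genes. In Δrad3 it called 0 higher and 0 lower, against 0.695% and 0.0122% of genes, with 2 at an unadjusted p under 0.05, which 16.5% of genes had. At that unadjusted threshold 4 of the listed genes stood in WT, against 27.9% of all genes. Without the array labelled WT replicate 2 limma called 0 of them lower in WT, against 0.0244% of genes. The median of the list was -0.12 in WT and -0.06 in Δrad3, beside -0.04 and -0.03 over all genes. No member stood above rad52 in either strain, but of all genes only 1.89% did in WT and 6.04% in Δrad3. The WT median was -0.07 when the array labelled WT replicate 2 was left out, beside -0.03 over all genes. The highest were fbh1, a helicase gene, at 0.31 in WT and rdh54, a Rad54-like translocase gene, at 0.18 in Δrad3. The lowest was rdl1 at -0.84 in WT (limma's adjusted p = 0.0477) and -0.51 in Δrad3. The other gene called lower in WT was nbs1, of the Mre11 complex, at -0.79 (limma's adjusted p = 0.0401).

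rti1, which encodes the second Rad52 homologue of fission yeast, stood at -0.07, 0.30 and 0.01 in WT and at 0.09, -0.08 and 0.07 in Δrad3. rad54, a DNA translocase gene of the pathway, stood at 0.08, -0.07 and -0.29 in WT and at -0.01, 0.02 and -0.15 in Δrad3. Both genes lay on both sides of 0 within WT. No probe of rti1 exceeded 0.81 on any array, far below the stop-codon probe of rad52 on slide 1.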

How the data were processed

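Deposited files were scanner output of 2-colour Agilent tiling arrays (Agilent Feature Extraction 10.7.3.1, per the file headers and the submitters' processing notes). The intensity columns hold processed spot brightness, background-subtracted and dye-normalized by the authors' run of that software, and per the file headers the log10 ratio gives red relative to green. The extraction protocol named in the headers was not the same on every slide. Other columns deposited there are spot marks. No further normalization is given in the sources used here.

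Here log2(green/red) was centred on each array's median, with outlier spots left out (4 to 3535 per array) and with probes dropped unless at least 3 arrays had input well above background (42659 stayed). Gene values are means over probes. Both strains entered 1 limma fit (R 4.3.3, limma 3.58.1, Benjamini-Hochberg adjustment over all 42390 probes or 8200 genes), a step tested on simulated data. The simulated arrays shared no slides, and the planted changes were larger than the strain differences given here for genes. That test therefore does not cover differences of this size. Same-numbered arrays shared a slide and scan day, and their deviations correlated at 0.390, 0.109 and 0.252. The main fit and the permutations did not use this pairing. It entered the differences within slides and, as an alternative fit, a block on replicate number.

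Coordinates are those of the files. Near the locus, probe length against A+T content of ASM294v3 correlated best at a shift of 2 bp (r = 0.61, 784 probes), so its annotation supplied names. Probes without a usable match (14.8%) stayed unnamed in the tests. Named genes were rad52, every gene of the window with at least 2 probes, the 5 nearest to rad52, rad3, and a recombination list of which rti1, rad54 and the extremes are named; 1 listed gene is not reported here. The members and lists were chosen with earlier results of these data known. Alternatives changed background correction, scaling, variance model, filters, probe summary, flanks, arrays and the block. Tables and figures used Python 3.11.15, pandas 2.3.3, scipy 1.17.1, matplotlib 3.10.9, the data.table package 1.17.8 and BLAST+ 2.17.0.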

Additional observations from a re-analysis of the deposited data

Results flagged for a closer look

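One probe of the window stood above 0 on all WT arrays and below 0 on all Δrad3 arrays. It lies in nth1, at chrI:1106924-1106982, with log2 IP/input of 0.10, 0.07 and 0.20 in WT and -0.16, -0.64 and -0.30 in Δrad3. The difference of -0.49 (Δrad3 minus WT) had limma's adjusted p = 0.958, and 1 such probe stands among the 72 of the window. The share of all probes split by 0 in this way was not counted. Groups that did not overlap, a wider condition, were found for 10.6% of all probes. Leaving out the array labelled WT replicate 2 could not undo such a split, so it is no test of it.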

How the results depend on the processing

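Over 19 alternative settings, 180 of 225 recomputed values were rated the same as in the main fit. For a mean or difference this meant the same direction and side of the threshold. For a count of window probes it meant an equal or similar count. The WT mean of rad52 (0.70) did not pass with normexp background correction (0.46), trended robust variance (0.70), the median of probes (0.45), coding sequence only (0.37), or without the highest probe of rad52 or of every gene (0.43 in both). The Δrad3 mean passed with arrays scaled to one spread (0.51, adjusted p = 0.0408). The WT excess over the flanks (0.51) did not pass with normexp (0.40), scaling (0.49), trended variance (0.51), the median (0.31), coding sequence only (0.19), flanks of 5000 bp (0.45), or without the highest probe (0.25 in both). The Δrad3 excess turned to -0.023 with coding sequence only. For the IP alone, the WT excess turned to -0.038 without the highest probe of rad52 or of every gene. For the input alone, the WT value turned to 0.0022 with coding sequence only, and the Δrad3 value to -0.041 with normexp, -0.042 without a filter on spots, -0.010 with flanks that leave out the nearest 1000 bp, and -0.061 without the highest probe of rad52 or of every gene. The 2 window probes called in WT became 0 with normexp and with trended variance and 1 with scaling, and the 0 in Δrad3 became 2 with scaling, against 3% of all probes. With scaling the 1 in WT was the probe at chrI:1096243-1096302. The 2 in Δrad3 were that probe and the one at the far 3′ end of rad52, chrI:1099464-1099523. The stop-codon probe was called in neither strain with scaling (limma's adjusted p = 0.0662 in WT and 0.0666 in Δrad3). With the replicate block, which leaves the spread between slides out of the error, the counts became 5 and 2. The WT excess in the IP alone passed with it (0.34), and the block changed no other call. Leaving out each array in turn gave 0.62 to 0.77 for the WT mean, 0.43 to 0.58 for the WT excess and 0 to 1 called probes in WT. The WT mean did not pass without WT replicate 2 (0.70) or 3 (0.62), and the WT excess passed under none of these. Settings that leave out arrays or probes rest on fewer of them, and the cause of the other changes was not tested. Precision is limited by 3 arrays per strain and by a median spacing of 280 bp between probes.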
